A study of Bos taurus with 79 samples.

Results

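Endometrium of pregnant heifers was compared with that of cyclic heifers on day 13 at normal progesterone, the last day sampled before day 16. The comparison took every day 13 sample labelled with normal progesterone, which gave 5 cyclic (CN) and 5 pregnant (PN) heifers, 10 of the 79 arrays of the series. The series holds 16 groups of bovine endometrium, set by day, status and progesterone. All heifers were estrus-synchronised cross-bred beef animals killed on the day named, and no age was given. PN heifers had been inseminated and were found pregnant, whereas CN heifers were left as cyclic controls, so insemination and the presence of a conceptus cannot be told apart here. Neither group carried the progesterone releasing intravaginal device (PRID) that the high progesterone groups, cyclic (CH) and pregnant (PH), received on day 3. Each array measured total RNA from a strip of endometrium, a mixture of luminal and glandular epithelium, stroma, vessels and leukocytes.

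The ruminant conceptus elongates inside the uterine lumen, and its trophectoderm secretes interferon tau. That protein acts on the endometrium through the type I interferon receptor, JAK kinases, STAT2 and IRF9, and raises interferon-stimulated genes such as ISG15, MX1, MX2 and RSAD2. It also restrains the release of luteolytic prostaglandin, which keeps the corpus luteum and its progesterone in place. Before that signal is strong, the histotroph that the glands and the luminal epithelium secrete feeds the conceptus. The comparison asks which endometrial genes already differ with pregnancy on day 13.

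Levels are log2 values per probe set, so a difference of 1 is a 2-fold change, and each of 9155 named genes is represented by its brightest probe set. Errors of levels are standard deviations (SD) over heifers, and errors of differences are standard errors (SE) of the linear model fitted with limma to all 79 arrays. Adjusted p-values are Benjamini-Hochberg values over all 24016 probe sets, with a threshold of 0.05. The 10 arrays had medians from 4.97 to 5.12, and any 2 of them correlated at 0.982 to 0.991 over probe sets. Probe sets with a mean under 3 made up 33.1% and are called near the floor below, since differences there are compressed. The labels name the samples of a group biological replicates. SEs and p-values use 1 spread per probe set, pooled within all 16 groups, so they can differ from the spread of the compared heifers.

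No named gene passed the adjusted threshold between PN and CN heifers on day 13: limma called 0 of 9155 (0.0%), and the lowest adjusted p among them was 1.0. At an unadjusted p under 0.05 there were 341 genes (3.72%), of which 132 (1.44%) were higher and 209 (2.28%) lower in PN heifers. If no gene differed, a share of about 0.05 would pass this threshold, so 3.72% is no excess. Differences were small: the median size was 0.1, the central range from the 5th to the 95th percentile ran from -0.33 to 0.32, and the median SE was 0.17. A difference of at least 1 in either direction occurred in 29 genes (0.317%). All PN heifers lay above all CN heifers for 54 genes (0.59%) and below them for 68 genes (0.743%). The bulk tissue does not separate fewer cells of a type from less RNA per cell, and this holds for every gene below.

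Over all probe sets 1 of 24016 (0.00416%) passed, and it has no gene symbol here. Its levels were 3.71, 2.88, 2.86, 2.86 and 3.10 in CN 1 to CN 5 and 3.68, 3.77, 5.34, 3.97 and 3.14 in PN 1 to PN 5. PN 3 stood highest, PN 1 and PN 5 lay within the CN range, and the groups overlapped. It rose by 0.90 ± 0.17 with limma (adjusted p = 0.0371). Its SDs were 0.36 in CN and 0.82 in PN heifers, while the SE came from the spread pooled over all groups. The call was lost when CN 2, CN 3, CN 4, CN 5, PN 3 or PN 4 was left out, each of which gave 0 probe sets, and 2 probe sets passed without PN 5. No probe set passed with the replicate block, with median centring, with the fit of day 13 only or among probe sets above the median level, a set to which this one does not belong. The fit of the 10 compared arrays alone called 1 probe set, but a different one that was lower in PN heifers. Weighting the arrays by their estimated quality raised the number past the threshold to 85.

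The genes with the highest moderated t are given as a description, since this contrast chose them. COLGALT2 (gene ID 789150), an enzyme that adds galactose to collagen, stood at 5.70, 5.76, 5.20, 5.71 and 5.10 in CN 1 to CN 5. Its PN levels were 5.99, 6.79, 6.71, 6.33 and 6.23. Every PN heifer lay above every CN heifer, with a difference of 0.92 ± 0.23, while the differences were -0.36 on day 16 and -0.22 at high progesterone. SHQ1, which helps assemble small nucleolar ribonucleoproteins, stood at 6.44, 6.49, 6.58, 6.43 and 6.78 in CN heifers. In PN heifers its levels were 7.07, 7.03, 6.97, 7.03 and 7.05. The groups did not overlap, and the PN SD of 0.04 was below the CN SD of 0.14, for a difference of 0.49 ± 0.15. TPST2, a Golgi enzyme that sulfates tyrosines, gave 7.61, 7.83, 7.83, 7.60 and 7.99 in CN against 8.20, 8.12, 8.47, 8.22 and 8.28 in PN heifers. Its groups were separate too, with a difference of 0.48 ± 0.15. ARHGAP1 stood at 8.90, 8.91, 8.68, 8.79 and 9.0 in CN and 9.96, 9.93, 9.29, 9.57 and 9.39 in PN heifers, again with no overlap. CYB5R4, a cytochrome b5 reductase (0.52), and HTATSF1, a factor of transcription elongation and splicing (0.40), also had separate groups. The remaining genes of highest t overlapped between groups: ATP6V0A2 of the vacuolar proton pump differed by 0.91, HSPA12B by 0.50, the ubiquitin ligase UBE3C by 0.47 and IVNS1ABP by 0.44. For IVNS1ABP 1 of its 2 other probe sets had the same sign.

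At the lower end PIK3R1 (gene ID 282307), the regulatory subunit of phosphoinositide 3-kinase, stood at 9.92, 10.11, 9.42, 9.49 and 9.43 in CN 1 to CN 5. The PN heifers had 8.33, 8.82, 8.30, 9.04 and 9.40. All PN levels were below all CN levels with PN 5 close to the lowest CN heifer, and the difference was -0.90 ± 0.29. MTPN, which binds the actin capping protein, had CN levels of 10.17, 9.80, 9.71, 8.82 and 9.04. Its PN levels of 8.38, 8.25, 8.51, 8.81 and 8.80 were lower without overlap, although CN 4 and PN 4 were nearly level, and the difference was -0.96 ± 0.30. The day 16 difference of MTPN was -0.56, and at high progesterone its day 13 difference was 0.75. SSBP2, a single-stranded DNA binding protein (-0.48), and DYNC1LI2, a light intermediate chain of cytoplasmic dynein (-0.32), also had separate groups. KIAA1143 (-0.51) and MRPL30 of the mitochondrial ribosome (-0.58) had separate groups as well, but for each the gene's other probe set had the opposite sign. QPCTL, PGM1, RANGRF and NUDT22 overlapped, with differences of -0.52, -0.65, -0.52 and -0.41. None of these 20 genes passed the adjusted threshold. With array weights 13 of them did (limma, adjusted p from 0.0159 to 0.0483), among 85 of 24016 probe sets in all. The same heifers chose the 20 genes, so this count is no independent support.

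**Figure D1:**
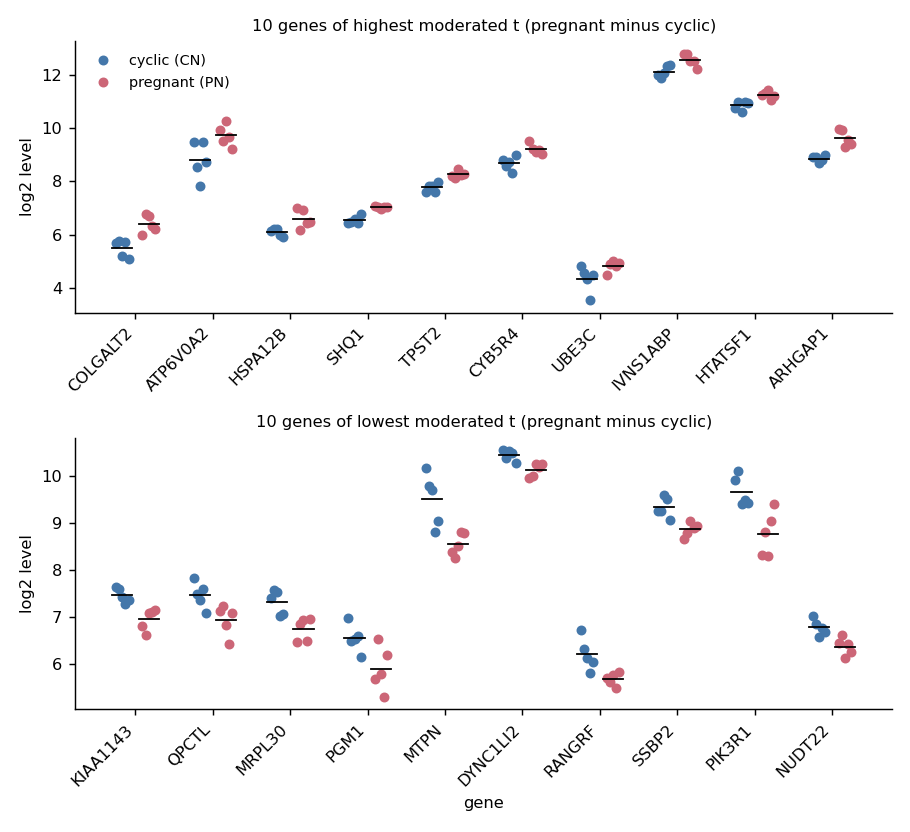
Log2 levels by heifer of genes with the highest and the lowest moderated t on day 13, cyclic (CN) in blue and pregnant (PN) in red, with a bar at each group mean. COLGALT2, SHQ1 and TPST2 have every pregnant heifer above every cyclic heifer, and PIK3R1 and MTPN have every pregnant heifer below; none passed the adjusted threshold.

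The interferon-stimulated genes did not separate pregnant from cyclic heifers on day 13. Of 62 genes written in the list, 40 were measured, 22 with a difference above 0 and 18 without. Their median difference was 0.01, equal to the median of 0.01 over all named genes. None passed the adjusted threshold, none had separate groups, and only OAS1X reached an unadjusted p under 0.05 (1 of 40 genes, 2.5%, against 3.72% of all genes). The mean of the 40 levels was 7.35 ± 0.66 (SD, n = 5) in CN and 7.46 ± 0.76 (SD, n = 5) in PN heifers. On day 16 the same means were 6.79 ± 0.14 and 9.62 ± 0.38, and the median difference was 2.77. Of the 40 genes 32 passed on that day, against 0.808% of all named genes.

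These genes varied widely among the heifers of either group on day 13. By heifer the list mean was 8.12, 7.20, 6.86, 7.95 and 6.63 in CN 1 to CN 5 and 7.01, 6.97, 7.08, 8.78 and 7.43 in PN 1 to PN 5. PN 4 stood highest, CN 1 and CN 4 came next, and the other PN heifers fell inside the CN range. PN 4 was the highest of the 10 arrays in 30 of the 40 genes (75.0%), compared with 7.9% of all named genes. CN 4 was among the top 3 arrays in 35 of the 40 and CN 1 in 33. The median SD of a gene of the list was 0.66 in CN and 0.73 in PN heifers, against 0.18 over all named genes in each group. Without PN 4 the median difference of the list was -0.24, without CN 1 it was 0.19, and without CN 1, CN 4 and PN 4 together it was 0.15.

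**Figure D2:**
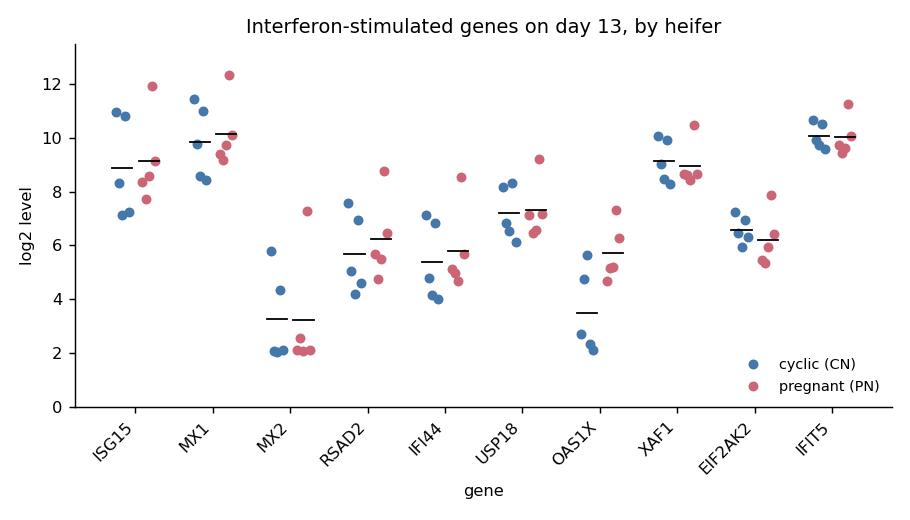
Log2 levels of 10 interferon-stimulated genes on day 13, each point a heifer, cyclic (CN) in blue and pregnant (PN) in red, with a bar at each group mean. For most genes 2 cyclic heifers and 1 pregnant heifer stand above the rest, and the groups overlap for every gene.

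ISG15 (gene ID 281871), a ubiquitin-like protein that is conjugated to other proteins, stood at 10.97, 8.32, 7.13, 10.81 and 7.24 in CN 1 to CN 5. Its PN levels were 8.35, 7.73, 8.58, 11.95 and 9.14. PN 4, CN 1 and CN 4 were the high samples, and the groups overlapped over most of their range. The difference was 0.26 ± 1.09, with a 95% interval from -1.92 to 2.44, whereas ISG15 rose by 6.30 on day 16 (limma, adjusted p = 0.000113). Without PN 4 the day 13 difference of ISG15 was -0.44.

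The antiviral GTPase MX2 (gene ID 280873) was near the floor in 7 of the 10 heifers. Its levels were 5.80, 2.08, 2.05, 4.36 and 2.10 in CN and 2.12, 2.55, 2.07, 7.29 and 2.10 in PN heifers. The same CN 1, CN 4 and PN 4 were the samples with a clear level, and the difference was -0.05 ± 0.99. MX1, the related GTPase, was at 11.44, 9.78, 8.58, 11.01 and 8.42 in CN and 9.40, 9.17, 9.74, 12.36 and 10.11 in PN heifers. Again PN 4, CN 1 and CN 4 led, for a difference of 0.31 ± 0.84. Both rose on day 16, MX2 by 6.95 and MX1 by 3.97 (limma, adjusted p = 5.84e-06 and 0.00348).

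RSAD2, the antiviral enzyme viperin, stood at 7.57, 5.04, 4.19, 6.96 and 4.59 in CN and 5.70, 4.76, 5.49, 8.76 and 6.47 in PN heifers. IFI44 had levels of 7.12, 4.79, 4.15, 6.84 and 4.00 in CN and 5.12, 4.99, 4.67, 8.55 and 5.67 in PN heifers. Their differences were 0.56 ± 0.99 and 0.42 ± 0.81, and the high samples were those named for ISG15. USP18, the protease that removes ISG15 from proteins, differed by 0.10 ± 0.74. Below 0 were IFI27 (-0.53), IFI6 (-0.48) and the RNA-activated kinase EIF2AK2 (-0.37).

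OAS1X (gene ID 347699), an oligoadenylate synthetase that responds to double-stranded RNA, had another order of heifers. Its CN levels were 2.69, 4.74, 5.64, 2.34 and 2.09, and its PN levels were 4.68, 5.15, 5.21, 7.31 and 6.27. CN 1 and CN 4, the high cyclic samples of the other genes, were near the floor here together with CN 5, while PN 4 was highest. CN 2 and CN 3 lay within the PN range, so the groups overlapped. The difference of 2.23 ± 1.09 had an unadjusted p of 0.0459 and an adjusted p of 1.0 with limma, and on day 16 OAS1X rose by 5.51.

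The pathway that carries the signal was measured for 13 of 18 genes, 9 with a difference above 0 and a median of 0.06. The receptor chain IFNAR1 differed by 0.25 ± 0.29 and IFNAR2 by 0.13 ± 0.17, and STAT2 by 0.01 ± 0.26. PIAS1, a SUMO ligase, was at 8.26, 8.26, 8.01, 8.12 and 8.29 in CN and 7.92, 7.84, 7.83, 7.92 and 7.88 in PN heifers. All PN levels were below all CN levels, for a difference of -0.31 ± 0.14 (limma, unadjusted p = 0.0241, adjusted p = 1.0). It was the only gene of the 13 with separate groups, which over all named genes occurred in 0.743% (PN below) and 0.59% (PN above).

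Genes listed as conceptus products were near the floor in the strips, with 1 exception. Of 26 trophectoderm products written, 17 were measured and 16 had means under 3, with differences from -0.05 to 0.05. IFNT2, an interferon tau gene, was at 1.71 ± 0.01 (SD, n = 5) in CN and 1.72 ± 0.01 (SD, n = 5) in PN heifers, from 1.70 to 1.74 over the 10 arrays. Pregnancy-associated glycoprotein PAG11 was at 1.97 and 1.98. SSLP1 was the exception, at 7.60 in CN and 7.62 in PN heifers, so its signal was as high in heifers left as cyclic controls.

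Across days, the interferon list was also uneven in cyclic heifers. At normal progesterone CN heifers ranged from 6.2 to 8.1 on day 5, from 6.11 to 9.31 on day 7, from 6.63 to 8.12 on day 13 and from 6.6 to 6.94 on day 16. PN heifers ranged from 6.10 to 6.69 on day 5, from 6.28 to 6.45 on day 7, from 6.97 to 8.78 on day 13 and stood at 9.2 or above on day 16. The groups thus overlapped on days 5, 7 and 13, and only on day 16 did every PN heifer lie above every CN heifer.

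**Figure D3:**
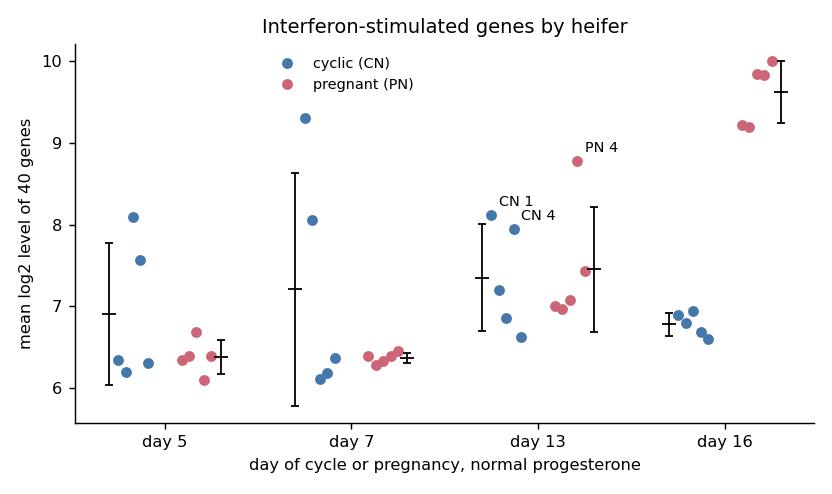
Mean log2 level of the 40 measured interferon-stimulated genes in each heifer by day at normal progesterone, cyclic (CN) in blue and pregnant (PN) in red, with a bar at each group mean and whiskers of 1 SD. On day 13 PN 4 (8.78), CN 1 (8.12) and CN 4 (7.95) stand above the others, and on day 16 the groups are apart.

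The change of the pregnancy difference from day 13 to day 16 was tested as an interaction, day 16 minus day 13. Limma called 33 probe sets (0.137% of 24016), all larger on day 16, among them 23 with a symbol that stand for 18 genes. By any of their probe sets, 14 of these 18 genes belong to the interferon list: DHX58, DTX3L, EIF2AK2, EPSTI1, IFI16, IFIT5, IRF7, MX2, PARP12, PARP14, RTP4, USP18, XAF1 and ZNFX1. The other 4 were GTF2B, a general transcription factor, PNPT1, a mitochondrial RNA-degrading enzyme, PSMF1, a proteasome inhibitor, and TDRD7. Among brightest probe sets 14 of 9155 genes (0.153%) and 11 of the 40 interferon genes passed. The day 13 difference was smaller than 0.5 in size for 29 of the 33 probe sets and ranged from -0.72 to 0.54. Over all named genes the 5th to 95th percentile of day 13 differences ran from -0.33 to 0.32. The interaction subtracts the day 13 difference, so it favoured probe sets with a small or negative one.

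MX2 had the largest change of the 33, 7.00 ± 1.39 (limma, adjusted p = 0.0147), a call lost without CN 1, CN 4, PN 1 or PN 3 of day 13. IFIT5, which binds viral RNA, changed by 2.53 ± 0.44 (adjusted p = 0.00638), and kept its call in every alternative run, from 2.38 to 2.83 with a heifer left out. EIF2AK2 changed by 3.60 ± 0.70 (adjusted p = 0.0122), lost without PN 1 of day 13. XAF1, an inhibitor of the apoptosis blocker XIAP, changed by 3.29 ± 0.64 (adjusted p = 0.0122), lost without CN 1, CN 4 or PN 1 of day 13. ISG15 (adjusted p = 0.093), RSAD2 (0.0741), IFI44 (0.0757), and MX1 (0.569) did not pass this test.

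The number of calls depended on single heifers. It was 62 without PN 4 of day 13, and 6, 4, 3, 8, 6 and 15 without CN 1, CN 4, PN 1, PN 2, PN 3 and PN 5 of that day. Leaving out a day 16 heifer gave 18, 16 and 16 without CN 2, CN 4 and CN 5, and 7 without PN 3 or PN 5. When CN 1, CN 4 and PN 4 of day 13 were left out together, 5 probe sets passed the threshold.

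**Figure D4:**
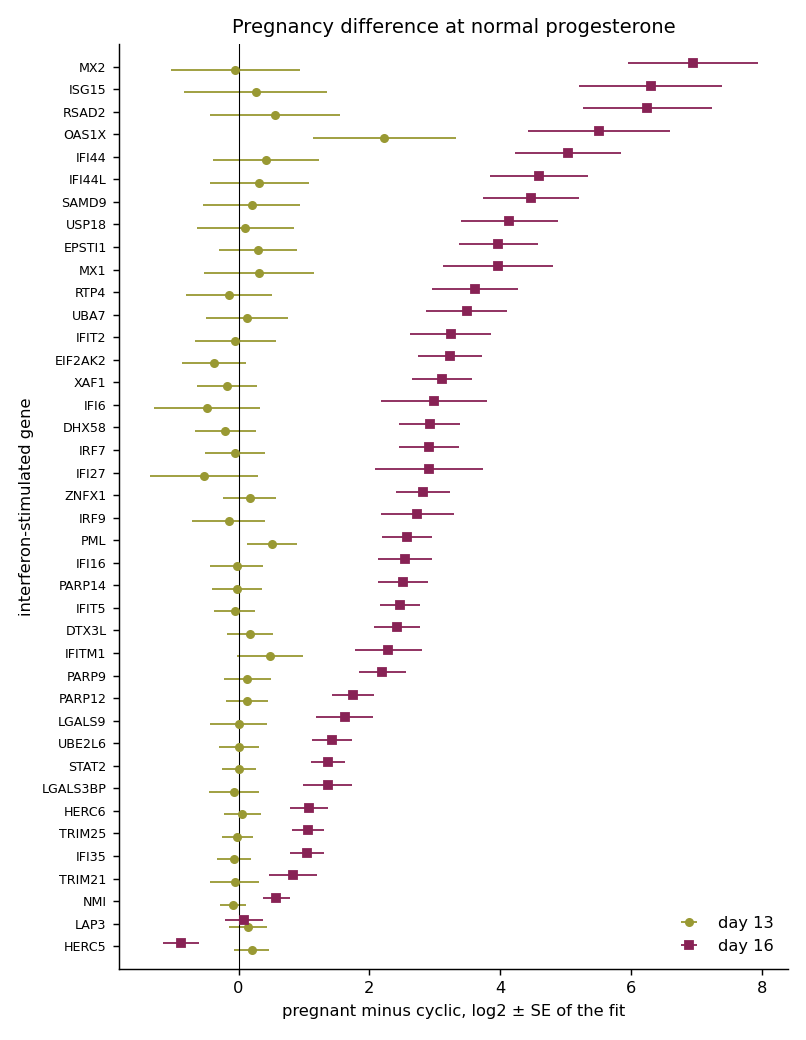
Pregnant minus cyclic difference in log2 units with its SE for each of the 40 measured interferon-stimulated genes at normal progesterone, circles for day 13 and squares for day 16. Day 13 differences run from -0.53 to 2.23 with a median of 0.01, and day 16 differences have a median of 2.77.

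The wider set of day 16 pregnancy genes was followed back to day 13. On day 16 limma called 74 named genes (0.808%), 68 (0.743%) higher and 6 lower in PN heifers. On day 13 the 68 genes had 47 differences above 0 (52.0% of all named genes were above 0) and a median of 0.10, and 3 (4.41%, against 3.72% of all named genes) had an unadjusted p under 0.05, namely CMTR1, OAS1X and TCAIM. The 36 of them outside the interferon list had 28 differences above 0 and a median of 0.11. The list mean was 7.64, 7.02, 6.76, 7.52 and 6.62 in CN 1 to CN 5 and 6.91, 6.90, 7.02, 8.25 and 7.22 in PN 1 to PN 5. PN 4 was again highest and CN 1 next, and the median turned to -0.12 without PN 4 and to -0.01 without CN 5. CCL8, a chemokine that rose by 3.81 on day 16 (limma, adjusted p = 0.000573), was at 3.43, 3.8, 3.22, 3.21 and 2.53 in CN and 3.27, 3.25, 3.24, 5.77 and 4.48 in PN heifers. PN 4 and PN 5 alone exceeded the CN range, and the day 13 difference was 0.76 ± 0.72.

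The histotroph and progesterone-response genes were balanced between the groups. Of 41 written 36 were measured, 17 above and 19 at or below 0, with a median of -0.05. TGM2, a transglutaminase that cross-links proteins, stood at 11.72, 11.53, 11.81, 11.45 and 11.67 in CN and 11.26, 11.30, 11.15, 10.97 and 10.94 in PN heifers. It was the only gene of the 36 with separate groups (0.743% of all named genes had PN below and 0.59% PN above CN), at -0.51 ± 0.23 (limma, unadjusted p = 0.0313, adjusted p = 1.0). DKK1 (gene ID 504445), a secreted Wnt antagonist, stood at 9.36, 9.79, 9.33, 9.74 and 9.28 in CN and 7.52, 8.86, 8.33, 8.27 and 9.35 in PN heifers. PN 5 lay within the CN range and the other PN heifers below it, for a difference of -1.03 ± 0.68, against 1.85 on day 16. The change of DKK1 between the days, 2.88 ± 0.96, had an adjusted p of 0.624 with limma.

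Lactoferrin, LTF, an iron-binding secretory protein, differed by -1.08 ± 0.77, with SDs of 1.11 in CN and 0.97 in PN heifers. Its other probe set had the opposite sign. UPK1B, a uroplakin, was at 2.42, 2.29, 2.19, 3.7 and 2.8 in CN and 2.31, 4.64, 5.21, 2.77 and 3.65 in PN heifers. PN 2 and PN 3 were above all CN heifers and the others were not, for 1.04 ± 0.52. DGAT2, which makes triglycerides, differed by 0.94 ± 0.62, and IGFBP1, which binds insulin-like growth factors, by 0.56 ± 0.47. HSD11B1, which regenerates cortisol, stood at 3.81 ± 1.12 (SD, n = 5) in CN and 4.67 ± 0.68 (SD, n = 5) in PN heifers.

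The receptors that govern luteolysis were near the floor. OXTR, the oxytocin receptor, was at 2.91 ± 0.55 (SD, n = 5) in CN and 2.96 ± 0.38 (SD, n = 5) in PN heifers. On day 16 OXTR stood at 5.84 in CN and 3.23 in PN heifers, and on day 13 at 5.02 in CH and 3.88 in PH heifers. PGR, the progesterone receptor, was at 2.50 and 2.51, and the estrogen receptor ESR1 at 2.37 and 2.24. Group means of PGR and ESR1 were also under 3 in those other groups. Whether their probe sets detect the receptors was not tested. Of 13 prostaglandin genes 8 were above 0, with a median of 0.01. PTGS2, the inducible prostaglandin synthase, stood at 8.94 ± 0.66 (SD, n = 5) and 8.72 ± 0.39 (SD, n = 5), and PTGS1 differed by 0.49 ± 0.28. The other probe set of PTGS1 had the opposite sign.

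Cholesterol synthesis genes were mostly higher in PN heifers without passing the test. Of 14 measured, 12 had a difference above 0, against 52.0% of all named genes. The median was 0.24, against 0.01 over all genes. The list mean was 8.58, 8.44 and 8.45 in PN 2, PN 3 and PN 4. PN 1 (7.94) and PN 5 (7.83) lay within the CN range of 7.82 to 8.23. MSMO1, a sterol demethylase, was at 12.49, 11.75, 12.15, 12.44 and 12.59 in CN and 12.58, 12.87, 12.84, 13.14 and 12.20 in PN heifers. PN 2, PN 3 and PN 4 were above all CN heifers, PN 5 was below most of them, and the difference was 0.44 ± 0.20. SQLE, squalene epoxidase, differed by 0.45 ± 0.30 with the same PN heifers highest. On day 16 the median of the list was -0.08, and at high progesterone on day 13 it was -0.28.

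Immediate early and heat shock genes had 14 of 17 differences above 0 (52.0% of all named genes were above 0) and a median of 0.23. The transcription factor JUN went the other way, at 11.38, 11.08, 11.39, 11.16 and 11.14 in CN and 10.73, 10.50, 10.86, 10.98 and 10.37 in PN heifers. Its groups did not overlap, and the difference was -0.54 ± 0.20 (limma, unadjusted p = 0.00761, adjusted p = 1.0). IER2 (0.23 ± 0.18) and the heat shock protein HSPH1 (0.45 ± 0.28) had all PN above all CN heifers. Over all named genes, 0.59% had PN above and 0.743% PN below CN without overlap. NR4A1, an orphan nuclear receptor, differed by 0.80 ± 0.44.

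Endothelial markers had 9 of 13 differences above 0 (52.0% of all named genes were above 0) and a median of 0.18. An unadjusted p under 0.05 with limma occurred in 2 of the 13 (15.4%), against 3.72% of all genes. FLT1, a receptor for vascular endothelial growth factor, stood at 5.93, 6.28, 6.82, 5.91 and 6.23 in CN and 6.63, 6.41, 7.31, 6.33 and 6.64 in PN heifers. Its groups overlapped through CN 3, and the difference was 0.43 ± 0.18 (limma, unadjusted p = 0.0198, adjusted p = 1.0). Of the 2 other FLT1 probe sets, 1 had the same sign. CLDN5, a tight junction protein of endothelium, went the other way, at 7.03, 7.73, 7.60, 7.49 and 6.62 in CN and 5.98, 5.76, 6.87, 6.88 and 7.31 in PN heifers. PN 1 and PN 2 were below all CN heifers and the others were not, for -0.73 ± 0.34 (limma, unadjusted p = 0.0359, adjusted p = 1.0). SOX18, a transcription factor of vessels, differed by 0.68, PLVAP by 0.44, the angiopoietin receptor TEK by 0.30 and PECAM1 by -0.01.

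Over all named genes 52.0% of differences were above 0. Steroid and oxytocin receptors had 3 of 9 differences above 0 and a median of -0.11. Antigen processing had 10 of 19 differences above 0 and a median of 0.02, and complement 9 of 17 and 0.01. Chemokines and cytokines had 20 of 29 and 0.02, with IL33 at -0.84 ± 0.40, a sign shared by 1 of its 2 other probe sets. Wnt genes had 6 of 14 and -0.05, growth factors 12 of 24 and -0.01, and cell cycle genes 17 of 25 and 0.01. T and NK cell markers had 11 of 18 and 0.02, B and plasma cell markers 5 of 7 and 0.01, epithelial markers 6 of 13 and -0.01, and red blood cell genes 4 of 8 and 0.00. No gene of any of the 22 lists passed the adjusted threshold. BOLA-DQB1, a class II histocompatibility gene named after its values were seen, was at 10.36, 9.09, 7.95, 2.58 and 9.86 in CN and 10.56, 10.32, 10.45, 10.28 and 11.03 in PN heifers. CN 4 was near the floor and CN 1 lay within the PN range. The difference was 2.56 ± 0.99, and 1.21 without CN 4, and 1 of its 4 other probe sets had the same sign.

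**Figure D5:**
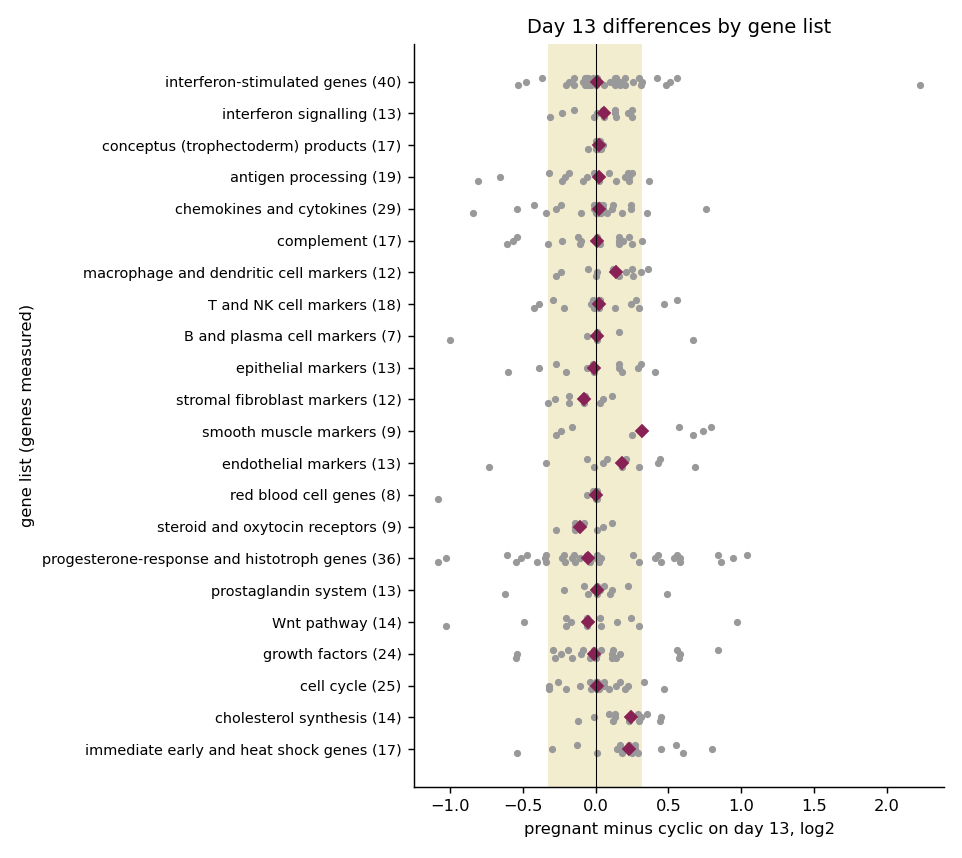
Pregnant minus cyclic differences in log2 units on day 13 for the measured genes of each list, each grey point a gene and each diamond the median of the list, over a band from the 5th to the 95th percentile of all named genes (-0.33 to 0.32). The medians lie between -0.11 and 0.32, and no gene shown passed the adjusted threshold.

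Markers of the cell types in the strips were present, with gaps. EPCAM was at 13.25 in CN and 13.54 in PN heifers and KRT18 at 10.01 and 9.82, while KRT8 was near the floor at 2.28 and 2.25. Stromal VIM (12.49 and 12.31) and COL3A1 (14.09 and 14.12) were high, and PECAM1 of endothelium was at 6.49 and 6.47. Haemoglobin HBA was near the floor at 2.29 and 2.30, and CD3D of T cells stood at 3.08 in each group. Smooth muscle markers, which mark myometrium and vessel walls, had 6 of 9 differences above 0 and a median of 0.32. Their mean was 6.97, 7.62, 7.47, 7.23 and 7.71 in CN and 8.74, 7.95, 7.37, 6.80 and 7.62 in PN heifers, with PN 1 highest and PN 4 lowest. ACTA2, an actin of smooth muscle, reached 11.48 in PN 1 and 8.79 in PN 4.

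In the heifers with high interferon-stimulated genes, macrophage and dendritic cell markers had means of 6.09 (CN 1), 5.86 (CN 4) and 6.33 (PN 4). The other 7 heifers had 6.11, 5.59 and 5.19 in CN 2, CN 3 and CN 5 and 5.44, 5.71, 6.02 and 5.81 in PN 1, PN 2, PN 3 and PN 5. PN 4 was the highest on this list too, and CN 2 was as high as CN 1. Over the 12 measured markers 9 had a difference above 0, with a median of 0.14 and 1 marker near the floor. The stromal list, with 3 of 12 above 0 and a median of -0.08, was lowest in PN 4 at 10.28. The part of these cell types in the interferon values was not tested.

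At high progesterone the comparison of PH with CH heifers on day 13 came from other animals, and the 2 pregnancy differences were tested against each other. Smooth muscle markers had a median difference of 1.41 at high and 0.32 at normal progesterone. ACTA2 reached 14.38 in PH heifers and at most 9.55 in CH heifers. The part of smooth muscle in the values of this test was not tested. Limma called 5 probe sets (0.0208%), all with a larger difference at normal progesterone, and 0 of 9155 genes by their brightest probe set (0.0%), with 965 (10.5%) at an unadjusted p under 0.05. A dimmer probe set of CREM, a transcription factor of cyclic AMP signalling, differed by 0.70 at normal and -1.13 at high progesterone, a gap of 1.83 ± 0.35 (adjusted p = 0.022). At normal progesterone it stood at 4.29, 4.64, 4.67, 4.11 and 4.66 in CN and 5.14, 4.71, 6.10, 4.91 and 5.00 in PN heifers, without overlap. A dimmer probe set of BRD8, a bromodomain protein, differed by 0.51 and -1.0, a gap of 1.51 ± 0.29 (adjusted p = 0.022). The brightest probe sets of CREM and BRD8 gave gaps of -0.02 ± 0.78 and 0.15 ± 0.18, so the probe sets of each gene disagreed. Both genes were named after their values were seen.

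The 5 calls depended on single heifers. The number was 0 without CN 1, CN 2, PN 1, CH 1, CH 3 or PH 5, then 1 without CN 4, 2 without CN 3 and 3 without PN 3 or PH 1. It was 8 without PN 5, 9 without PH 3 and 10 without CN 5. For interferon-stimulated genes the median difference was 0.43 at high and 0.01 at normal progesterone, and none of the 40 passed the test of the gap. ISG15 differed by 1.83 at high progesterone and by 0.26 at normal progesterone (adjusted p = 0.887 for the gap with limma).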

How the data were processed

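Total RNA of endometrium was hybridised to Affymetrix bovine arrays, 1 per heifer as far as the labels say. The deposited log2 values per probe set were used as the authors made them. The submitters' processing notes name RMA, GCRMA and limma and no version; whether RMA or GCRMA made these values is not given in the sources used here, and neither is their background correction. Scan and extraction dates were not used here, and precision is limited by the number of arrays.

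Of 24128 probe sets 112 Affymetrix controls were left out, and 24016 were tested without a filter. Platform annotation gave 13292 probe sets 1 symbol, 86 several and 10638 none used here. Gene identifiers of 13263 were found in the ARS-UCD2.0 gene table, which changed 0 symbols. A gene was its probe set of highest mean, for 2913 of 9155 genes the brightest of several. No sequences or positions are given.

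The fit was made in R 4.3.3 with limma 3.58.1 and statmod 1.5.0, as means of 16 groups over 79 arrays, on 63 residual and 1.49 prior degrees of freedom. Python 3.11.15, pandas 2.3.3 and matplotlib 3.10.9 served for summaries and plots. Tested on simulated data for day 13 PN against CN over 24016 probe sets, the fit recovered 69% of changes of 1 log2 unit and 96% of changes of 2, with 7 false calls (4.07%). Each size of change was put into 100 probe sets with means above 4 over all arrays, with independent normal noise of equal SD in every group. The shares do not hold for genes of lower mean, among them those near the floor. Nor do they hold for genes raised in single heifers, such as interferon-stimulated genes. All changes were planted at once, which eases the Benjamini-Hochberg cut-off. Where few probe sets change, the cut-off is stricter and a smaller share can be recovered.

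Named genes were the 10 highest and 10 lowest moderated t with a group mean of at least 4, up to 2 members per list by t, and ISG15, MX1, MX2, RSAD2, IFI44, USP18, OXTR, PGR, ESR1, DKK1, LTF and interferon tau genes. Other list members are named with their values as examples, chosen after their values were seen, as were EIF2AK2, IFIT5 and XAF1. The members, the 22 lists and the tests were chosen with earlier results of these data known. Lists were described by counts and medians, without a test. Alternatives were other samples in the fit, normalization, a filter on level, trend and robust moderation, array weights, the replicate block and leaving out heifers. The omission of CN 1, CN 4 and PN 4 was chosen after seeing the data.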

Additional observations from a re-analysis of the deposited data

Results flagged for a closer look

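Of 200 groups of 5 values tested for a sample far from the others by Dixon's ratio (critical value 0.71), 13 had one (6.5%), and chance gives about 1 in 20. PN 4 was the sample apart in 6 of them: MX2 at 7.29, IFI44 at 8.55, USP18 at 9.21, XAF1 at 10.50, the mean of interferon-stimulated genes at 8.78, and the mean of stromal fibroblast markers at 10.28, where it was low. The other samples far from their group were TKDP4 in PN 3 at 2.01, DLX3 in CN 5 at 2.49, NR3C1 in PN 5 at 6.97, PLK1 in CN 1 at 3.31, IFNT2 in PN 1 at 1.74, the mean of chemokines and cytokines in CN 5 at 3.41, and the mean of T and NK cell markers in PN 2 at 3.8. TKDP4, DLX3 and IFNT2 are near the floor.

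The pregnancy difference itself differed between day 16 and day 13, by the limma interaction, for MX2 (7.00), EIF2AK2 (3.60), IFIT5 (2.53) and XAF1 (3.29). Among probe sets without a gene symbol, 1 differed between pregnant and cyclic heifers on day 13 by 0.90.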

How the results depend on the processing

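The day 13 count of 1 probe set became 85 with array weights, 2 without CN 1, CN 4 and PN 4, and 0 with bright probe sets only, with the fit of day 13 only, with median centring or with the replicate block, and 0 to 2 with a heifer left out. With the arrays of the contrast only it stayed at 1, but the probe set called was a different one, lower in PN heifers. The count of 5 for normal against high progesterone became 1542 with array weights, 140 with the fit of day 13 only (the arrays of the contrast), 2 with quantile normalization, 2 without PH 1 and PH 4, 0 with bright probe sets only, and 0 to 10 with a heifer left out. The count of 33 for day 16 against day 13 became 133 with array weights, 76 with the arrays of the contrast only, 53 with the fit of days 13 and 16, 5 without CN 1, CN 4 and PN 4, 40 with the replicate block, and 3 to 62 with a heifer left out. The cause of these moves was not tested. With a heifer left out, the median of the interferon list ran from -0.24 to 0.19 and that of the day 16 genes from -0.12 to 0.20.

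Replicate numbers did not pair the heifers: the deviations of CN and PN arrays with the same number correlated at -0.00637 to 0.157 on day 13 and -0.297 to 0.17 on day 16. The replicate block is therefore given only as an alternative fit.

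Of 1582 pairs of a named gene and an alternative, 1521 kept sign and side of the threshold, and 39 turned sign, in 11 genes, among them RSAD2 (0.56) and IFI44 (0.42), which did so only without PN 4. Apart from heifers left out, these were MX2 at 0.14 and PGR at -0.12 without CN 1, CN 4 and PN 4, PGR at -0.02 and IFNT2 at -0.01 with median centring, PGR at 0.00 with quantile normalization, and USP18 at -0.04 with array weights. With a heifer left out, day 13 differences ran from -0.44 to 0.78 for ISG15, -0.24 to 0.71 for MX1, -1.07 to 0.58 for MX2, -0.07 to 1.04 for RSAD2, -0.27 to 0.85 for IFI44, -0.37 to 0.38 for USP18, -0.09 to 0.28 for OXTR, -0.09 to 0.09 for PGR, -0.36 to 0.09 for IFIT5 and -0.56 to 0.05 for XAF1. Signal near the floor limits MX2, OXTR, PGR, ESR1 and the conceptus genes.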
